A study of Mus musculus with 8 samples.

Results

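The genes that move glucose, lactate and amino acids across membranes were followed in C2C12, mouse muscle precursor cells that form myotubes once serum is lowered. They were chosen by symbol as the Slc1, Slc2, Slc3, Slc6, Slc7, Slc16, Slc36, Slc38 and Slc43 solute carrier families, with Slc7a2 left out. This gave 84 of the 23420 gene symbols in the count table, and 84 of its 367 symbols that begin with Slc. Sequencing covered 4 groups of 2 libraries each: total RNA of AUF1-overexpressing cells, total RNA of WT cells, heavy polysome RNA of AUF1-overexpressing cells and heavy polysome RNA of WT cells. All cells were grown with 10% fetal bovine serum and then held for 48 h in 2% horse serum to differentiate. AUF1, encoded by Hnrnpd, is a protein that binds AU-rich stretches of mRNA, and heavy polysomes hold mRNA that carries many ribosomes. The labels do not state how AUF1 was introduced, whether its line is 1 clone, or whether WT cells received a vector, so an effect of AUF1 cannot be told apart from a difference between lines. The labels do not say whether both libraries of a group are separate cultures. The p-values therefore cover only library-to-library spread, possibly technical.

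Transporters of these families decide which fuels and building blocks a muscle cell can take up or release. Glucose enters through the facilitative carriers of the Slc2 family, among them GLUT1 (Slc2a1) at the resting surface and GLUT4 (Slc2a4), which insulin brings to the surface of mature muscle. Lactate crosses with a proton through the monocarboxylate carriers MCT1 (Slc16a1) and MCT4 (Slc16a3), which need the chaperone basigin (Bsg). Amino acids enter with sodium through the Slc1, Slc6 and Slc38 families, and large neutral ones are exchanged by light chains of the Slc7 family bound to the heavy chain 4F2hc (Slc3a2), a step that feeds the growth kinase complex mTORC1.

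Libraries held 25281224 to 34917660 counts assigned to genes. Levels are given in CPM, counts relative to library size after scaling by the trimmed mean of M-values. Hnrnpd was at 448 and 397 CPM in AUF1 total RNA, against 64.2 and 99.6 CPM in WT total RNA. On polysomes it was at 549 and 427 CPM in AUF1 cells, against 106 and 131 CPM in WT cells, in the direction of the labels. The summed level of 6 myoblast and early myotube markers was 9951 and 6632 CPM in AUF1 total RNA and 2439 and 2279 CPM in WT total RNA, so muscle markers were present in every library. With the replicate block described below, 4 of these 6 markers (Des, Myog, Tmem8c and Myh3) were called higher in AUF1 cells in both fractions, and the part of differentiation in the transporter differences was not tested. Of 4 fibroblast markers, Lum was at 0 in all 4 total RNA libraries, and the list summed to 22.8 and 13.3 CPM in AUF1 total RNA against 397 and 67.7 CPM in WT total RNA. On polysomes that list summed to 21.9 and 14.2 CPM in AUF1 cells and 374 and 75.9 CPM in WT cells. Adipocyte, endothelial and immune lists summed to at most 1.09 CPM in any library. The neuronal markers Rbfox3 and Snap25 were at 0 in all libraries but WT polysome replicate 1, where each was at 0.0568 CPM.

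Of the 84 transporter genes, 45 passed the filter on low counts and were tested, and 39 were not. Of the untested genes 12 had no count in any library, and none had more than 57 counts over the 8 libraries. A gene high in only 1 genotype can pass this filter through that genotype. Of the 45, Slc2a3 did so, with 0 AUF1 and 3 WT libraries over the filter's 0.361 CPM, so its difference follows in part from the filter. The other 44 reached it in libraries of both genotypes.

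Levels were compared per length, as CPM per kilobase of a gene's merged exons. The taurine carrier Slc6a6 had the highest mean of the 45, with 182 and 25.8 CPM per kilobase in AUF1 total RNA and 82.7 and 24.9 CPM per kilobase in WT total RNA. This lead came from replicate 1: over the replicate 2 libraries the creatine carrier Slc6a8 was first (mean 48.5 CPM per kilobase), SNAT2 second (34.1) and Slc6a6 in place 3 (28.7). Over all libraries Slc6a6 was followed by the creatine carrier Slc6a8, the leucine and tryptophan exchanger LAT1 (Slc7a5), its heavy chain Slc3a2, the glutamine carrier SNAT2 (Slc38a2) and Slc2a1. These 6 carriers bring in osmolytes, creatine, glucose and neutral amino acids. The insulin-responsive Slc2a4 stood at place 42 of 45, with 0.332 and 0.0319 CPM per kilobase in AUF1 total RNA and 0.175 and 0.0505 CPM per kilobase in WT total RNA. Replicate 1 lay far above replicate 2 for most of these genes in both genotypes. For each of the 6 highest carriers the AUF1 and WT values overlapped in total RNA.

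**Figure D1:**
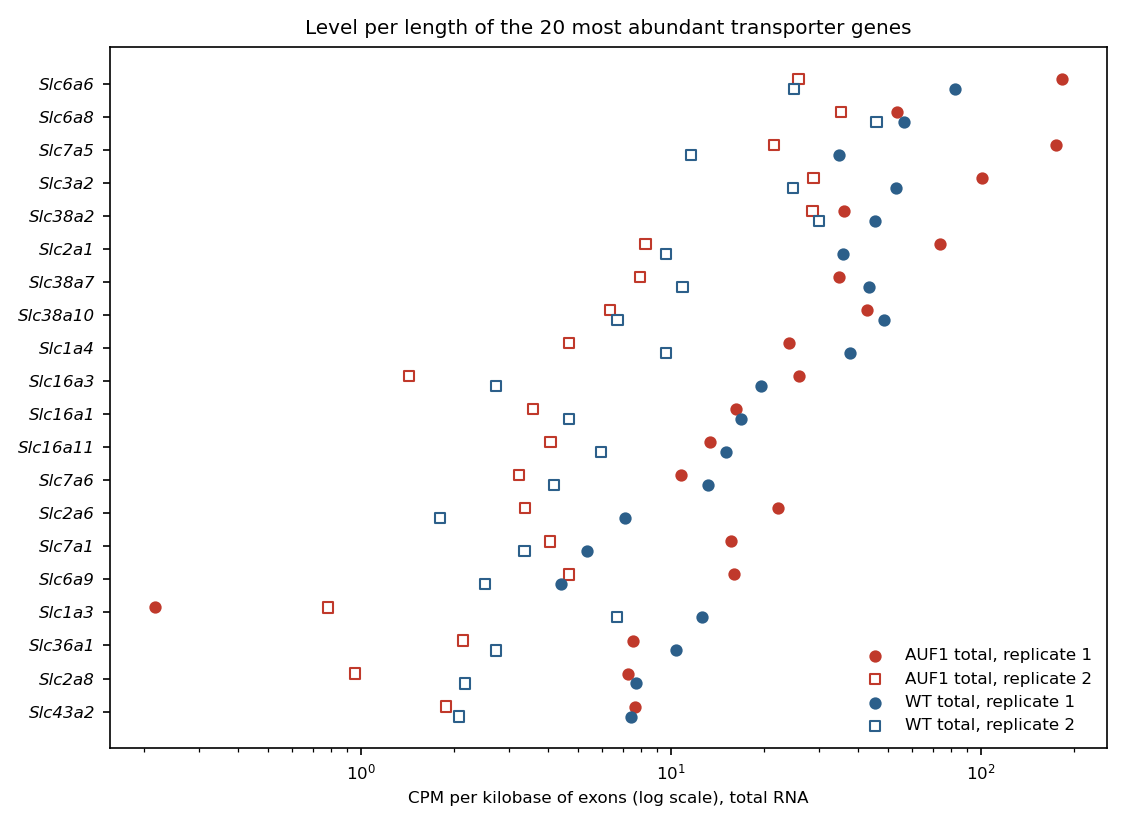
Level of the 20 transporter genes with the highest mean, in CPM per kilobase of merged exons on a log scale, in the AUF1 total and WT total libraries; filled circles are replicate 1 and open squares replicate 2. Filled circles lie to the right of open squares in nearly every line, and Slc1a3 is the gene whose AUF1 and WT points lie farthest apart.

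More of these genes differed between the replicate numbers than between the genotypes. Summed over all 84 genes, transporters held 4980 CPM in AUF1 total replicate 1 and 1215 CPM in replicate 2. The same sum was 3439 and 1367 CPM in WT total RNA, 3808 and 1387 CPM in AUF1 polysome RNA, and 3262 and 1694 CPM in WT polysome RNA. Replicate 1 therefore had the higher summed transporter CPM in each of the 4 groups. In a fit with the replicate number as an additive term, 37 of the 45 genes were higher in replicate 1 (adjusted p under 0.05) and 0 were higher in replicate 2. Over all 13167 genes tested, 20.8% were higher in replicate 1 and 8.98% in replicate 2, or 29.8% in either direction. The median log2 difference, replicate 1 minus replicate 2, was 1.59 for the transporters and -0.06 for all genes. In 39 of the 45 genes replicate 1 was higher in all 4 groups, which held for 26.0% of all genes. Slc7a11, the cystine importer, went the other way in 3 of the groups, with log2 differences of -0.77 in AUF1 total, -0.89 in WT total and -0.98 in WT polysome RNA. The 3 tested fibroblast markers had a median difference of 1.67 and the 6 myoblast and myotube markers one of -0.32. Within the muscle list Tmem8c stood apart at 3.07, and the others ranged from -0.63 (Myf5) to 0.16 (Des). The part of either list in the split was not tested. The labels do not say what the libraries of 1 number share.

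**Figure D2:**
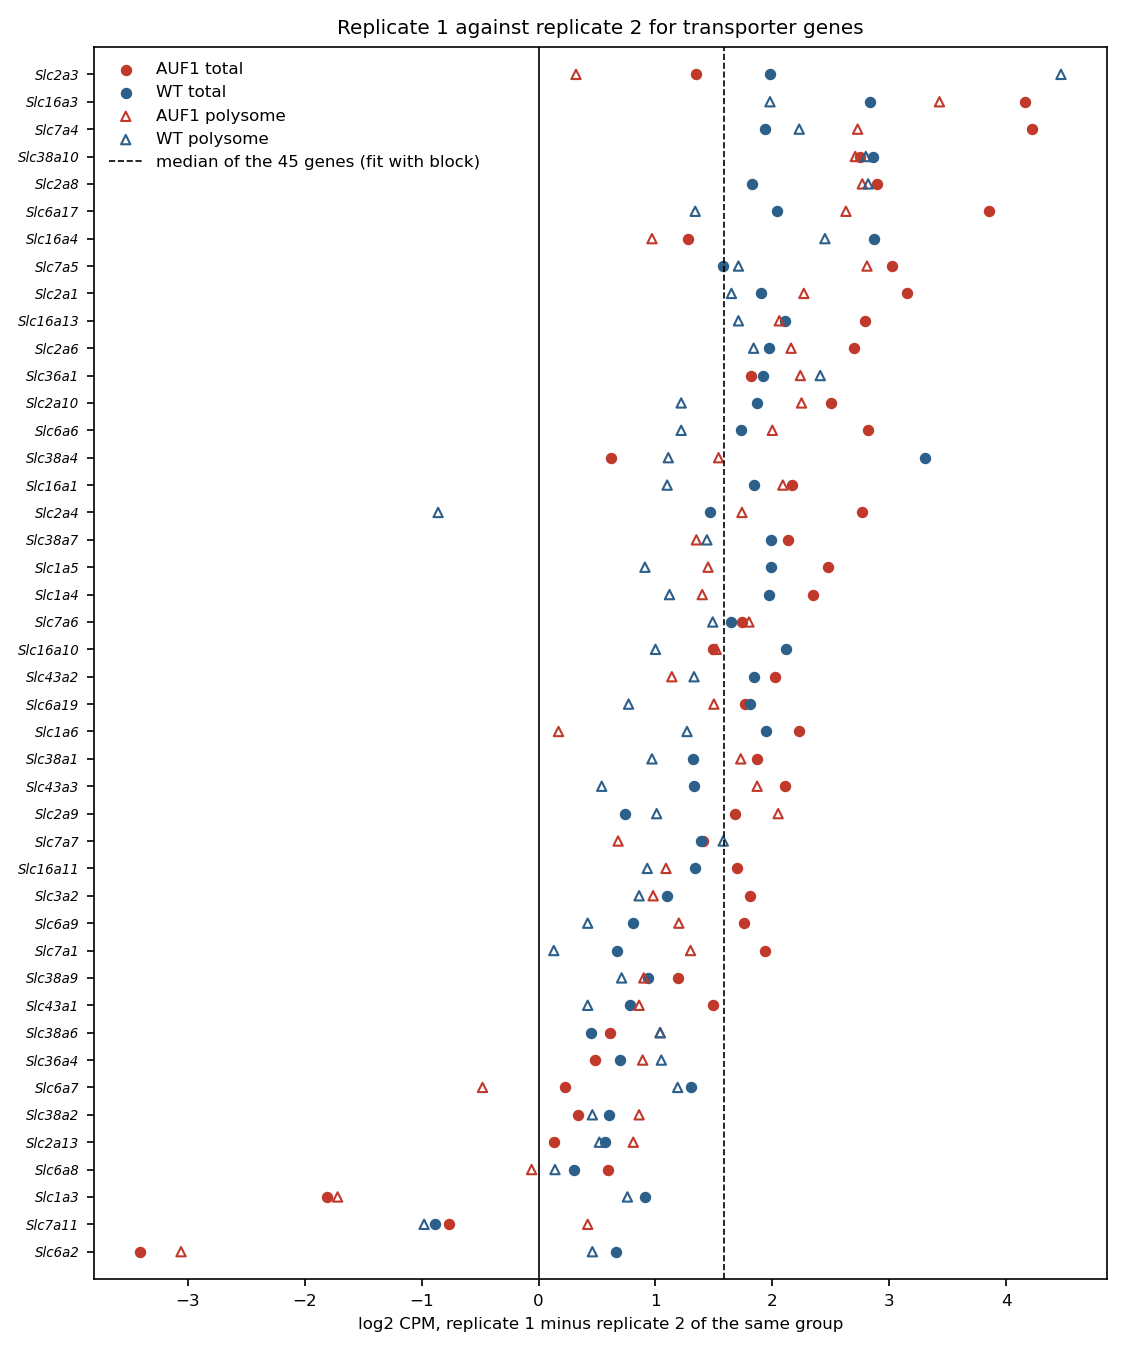
Difference in log2 CPM between replicate 1 and replicate 2 of the same group for 44 of the 45 tested transporter genes, with 1 point per group (red AUF1, blue WT, filled total RNA, open polysome RNA). Most points lie right of 0, the dashed line marks the median of 1.59 over all 45, and Slc6a2 and Slc1a3 have AUF1 points left of 0 and WT points right of it.

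Because of this split, AUF1 against WT is given in the fit without the number, in the fit with it as a block, and within each number. Without the block, edgeR's quasi-likelihood test called 0 of the 45 transporters in total RNA, where 1.02% of all genes were called, and 0 on polysomes, where 0.349% were. At an unadjusted p under 0.05 there were 4 and 7 transporters, against 13.7% and 14.1% of all genes. DESeq2 called 4 and 5, against 6.72% and 6.5% of all genes. These were Slc1a3, Slc1a6, Slc2a13 and Slc6a2 in both fractions and Slc2a3 on polysomes, all lower in AUF1 cells. With the block, 8 transporters were called in total RNA, 3 higher and 5 lower in AUF1 cells, against 13.1% of all genes, that is 6.99% higher and 6.15% lower. On polysomes the block gave 9 calls, 2 higher and 7 lower, against 13.0% of all genes, that is 6.7% higher and 6.33% lower. Together these were 10 genes, of which 7 were called in both fractions. The same overlap over all genes is not given here, so it is not read as a trait of the transporters. Leaving out Slc2a3 gave 7 calls in total RNA and 8 on polysomes. DESeq2 with the block called 3 higher and 5 lower in total RNA, against 8.34% and 9.61% of all genes, and 3 higher and 9 lower on polysomes, against 9.02% and 9.33%. The median log2 fold change of the transporters was -0.17 in total RNA and -0.20 on polysomes, and 0.0 in both for all genes. Within the numbers, 25 transporters were lower in AUF1 cells in both and 11 higher in both in total RNA, against 38.4% and 35.1% of all genes. On polysomes 21 were lower and 8 higher in both, against 40.5% and 39.0%. The remaining 9 and 16 genes had opposite signs in the 2 numbers, against 26.5% and 20.5%. All AUF1 values lay above all WT values for 2 transporters and below them for 6 in total RNA, against 22.5% and 17.8% of all genes. On polysomes this held for 2 and 9, against 23.6% and 21.3%. The block calls moved with single libraries: in total RNA they were 3 without WT total replicate 1 (2.42% of all genes in that fit), 5 without WT total replicate 2 (4.63%) and 13 without AUF1 total replicate 2 (21.9%). On polysomes they were 3 without AUF1 polysome replicate 1 (4.37%), 5 without WT total replicate 1 (8.68%), 18 without AUF1 total replicate 1 (22.2%) and 15 without AUF1 total replicate 2 (20.6%). The share of all genes called thus moved with the same libraries. Slc2a13, Slc1a6 and Slc1a3 remained called lower in both fractions in all 8 blocked fits that left out 1 library.

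**Figure D3:**
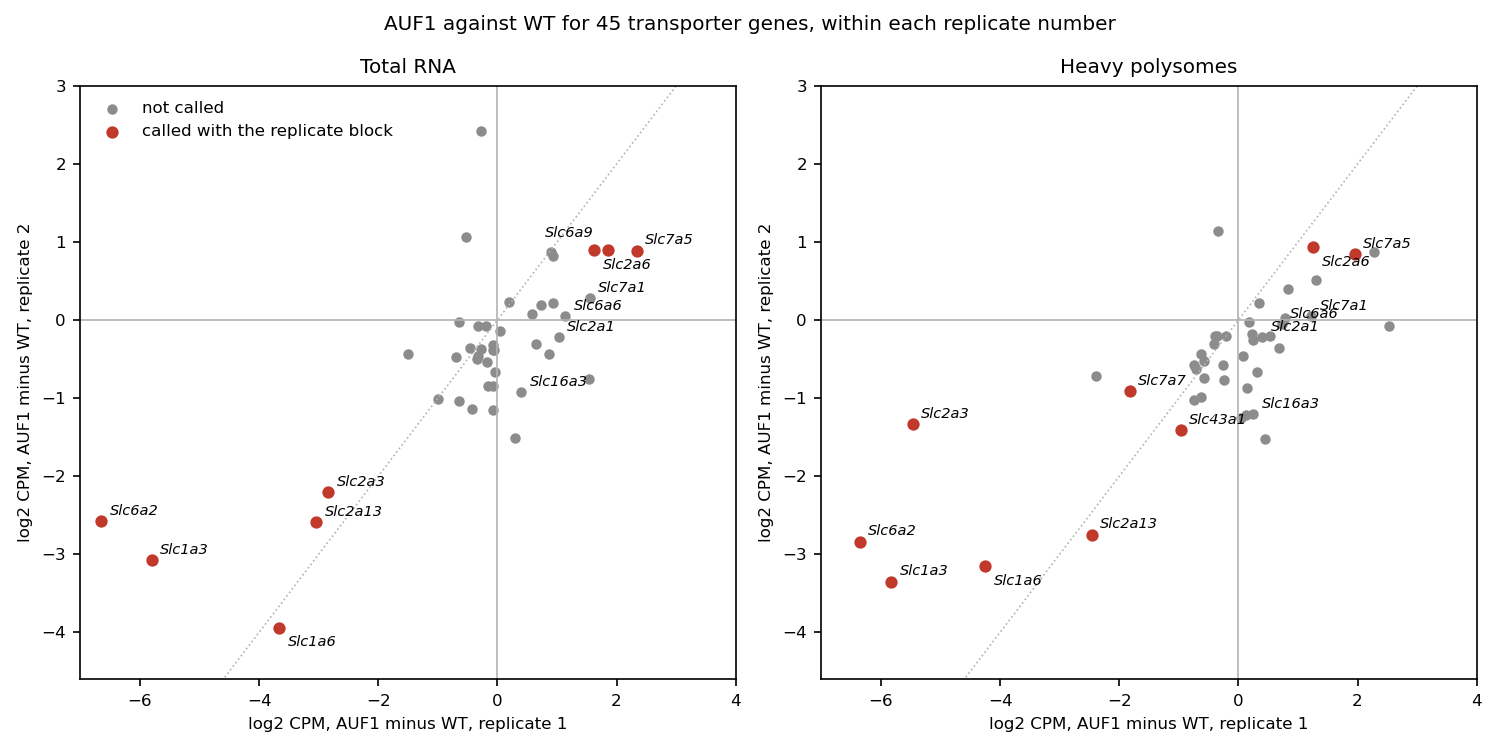
Change of each of the 45 transporter genes as log2 CPM, AUF1 minus WT, within replicate 1 (horizontal) and within replicate 2 (vertical), in total RNA and on heavy polysomes; red points were called with the replicate block and the dotted line marks equal change. Called genes lie at the lower left and upper right, while Slc2a1 and Slc16a3 lie at the lower right, higher in AUF1 cells within replicate 1 and lower within replicate 2.

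Among the sugar carriers, 8 of 12 were tested, and with the block 1 was called higher and 2 lower in each fraction. The proton-coupled inositol carrier Slc2a13 (chr15:91267696-91573261 of mm10) was at 1.02 and 0.926 CPM in AUF1 total RNA, against 8.87 and 5.93 CPM in WT total RNA. It was at 1.80 and 0.995 CPM in AUF1 polysome RNA and 10.3 and 7.11 CPM in WT polysome RNA. Both AUF1 libraries lay below both WT libraries in each fraction. The log2 fold change of Slc2a13 in total RNA was -2.92 (SE 0.47, adjusted p = 0.0536), and -2.90 (SE 0.34, adjusted p = 0.000846) with the block. In total RNA it changed by -3.04 within number 1 and by -2.59 within number 2, and on polysomes by -2.46 and -2.75. The blocked adjusted p on polysomes was 0.00125. Slc2a13 was also called by DESeq2 without the block, with an adjusted p of 3.25e-07 in total RNA and 5.56e-06 on polysomes. In bulk RNA, fewer cells of a type and less RNA per cell cannot be told apart.

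The neuronal-type glucose carrier GLUT3 (Slc2a3) was low everywhere except in 1 library. It had 0.105 and 0 CPM in AUF1 total RNA and 1.17 and 0.246 CPM in WT total RNA. On polysomes it had 0.155 and 0.111 CPM in AUF1 cells and 9.86 and 0.381 CPM in WT cells, so WT polysome replicate 1 stood far above the rest. In total RNA this came to 3 counts in AUF1 libraries and 36 in WT libraries, a ratio of 0.0798 with an exact 95% counting interval of 0.0157 to 0.252. That interval covers counting error only and not the spread between libraries, and 29 of the 36 WT counts were in replicate 1. Slc2a3 passed the filter through WT libraries alone, so its calls and this interval are given as a description. With the block it was called lower in total RNA (log2 -3.88, SE 1.11, adjusted p = 0.0481) and on polysomes (log2 -4.72, SE 0.89, adjusted p = 0.00896). Without the block the adjusted p was 0.49 and 0.256. The blocked call was lost on polysomes without AUF1 polysome replicate 1 or WT polysome replicate 1 (adjusted p up to 0.284), and in total RNA without AUF1 total replicate 1 or either WT total library (up to 0.247).

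Slc2a13 and Slc2a3 are shown with their AU-rich sites because AUF1 binds such sites and both were called lower. The call of Slc2a3 follows in part from the filter. The sites below are in the 3′ untranslated region of the GENCODE M21 transcript on the minus strand of mm10, read on the transcript strand as DNA letters, with the nonamer TTATTTATT in capitals. The third, shown for comparison, belongs to Slc7a6, a light chain that was not called.
Slc2a13, chr15:91269923-91269951: tttctaaaaaTTATTTATTatctatatag
Slc2a3, chr6:122729462-122729490: aacttgagttTTATTTATTttatcttcag
Slc7a6, chr8:106197588-106197616 on the plus strand: ctgtatgtcaTTATTTATTgatatttaat
The nonamer, searched on the sense strand, occurred in 5 of the 45 transporters (11.1%) and in 7.73% of 11886 tested genes with an annotated region. The other carriers with it were Slc16a10 and Slc36a4, and their blocked log2 fold changes in total RNA were -0.42 and -0.59, with adjusted p of 0.572 and 0.196. The pentamer ATTTA, which lies within the nonamer, occurred in 34 of the 45 (75.6%) against 67.5% of genes. The transporters' regions were longer, with a median of 1884 bases against 1030, and held a median of 1.19 pentamers per kilobase against 1.26 for all genes. It occurred 0 times in each of the carriers called higher (Slc2a6, Slc7a5 and Slc6a9), and of those called lower 14 times in Slc2a13, 6 in Slc6a2, 4 in Slc2a3, 2 in Slc1a3, 1 each in Slc43a1 and Slc7a7, and 0 in Slc1a6. Among the genes that DESeq2 with the block called besides, Slc7a11, higher on polysomes, held 11, while Slc1a4 and Slc6a7, lower there, held 1 and 0. Carriers that neither tool called on all 8 libraries held from 0, as in Slc1a5, to 15 in Slc16a10, which also held 4 nonamers. Among carriers called with the edgeR block, the regions ranged from 150 bases in Slc1a6 to 4458 bases in Slc2a13. They held 551 bases in Slc2a6, 1063 in Slc6a9 and 1890 in Slc7a5, the carriers called higher. Of the others called lower, Slc6a2 had 4018, Slc2a3 2122, Slc1a3 2008, Slc43a1 565 and Slc7a7 342 bases. The part of length in the pentamer counts was not tested. Whether AUF1 bound any region was not measured.

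Slc2a6, a lysosomal sugar carrier, was the sugar carrier called higher. It was at 71.1 and 10.8 CPM in AUF1 total RNA against 22.8 and 5.79 CPM in WT total RNA, and at 38.4 and 8.55 CPM against 16 and 4.41 CPM on polysomes. Within each number AUF1 was higher, but AUF1 replicate 2 lay below WT replicate 1, so the groups overlapped. The blocked log2 fold change was 1.30 in total RNA (SE 0.28, adjusted p = 0.0153) and 1.11 on polysomes (SE 0.28, adjusted p = 0.0294), and the adjusted p without the block was 0.69 and 0.791. The call in total RNA was lost without AUF1 total replicate 1 or either WT total library (adjusted p up to 0.272). On polysomes it was lost without either WT total library, either AUF1 polysome library or WT polysome replicate 1 (up to 0.22).

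The principal glucose carriers were not called in any of these fits on all 8 libraries. Slc2a1 had 258 and 29.0 CPM in AUF1 total RNA and 126 and 33.9 CPM in WT total RNA, that is a log2 difference of 1.03 within number 1 and -0.22 within number 2. Its blocked log2 fold change was 0.47 (SE 0.34, adjusted p = 0.395) in total RNA and 0.07 (SE 0.33, adjusted p = 0.926) on polysomes. Without AUF1 total replicate 2 it was called in total RNA, with an adjusted p of 0.0219. Slc2a4 had 1.16 and 0.111 CPM in AUF1 total RNA against 0.608 and 0.176 CPM in WT total RNA, and a blocked adjusted p of 0.721. Both genes thus changed sign between the numbers in total RNA.

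**Figure D4:**
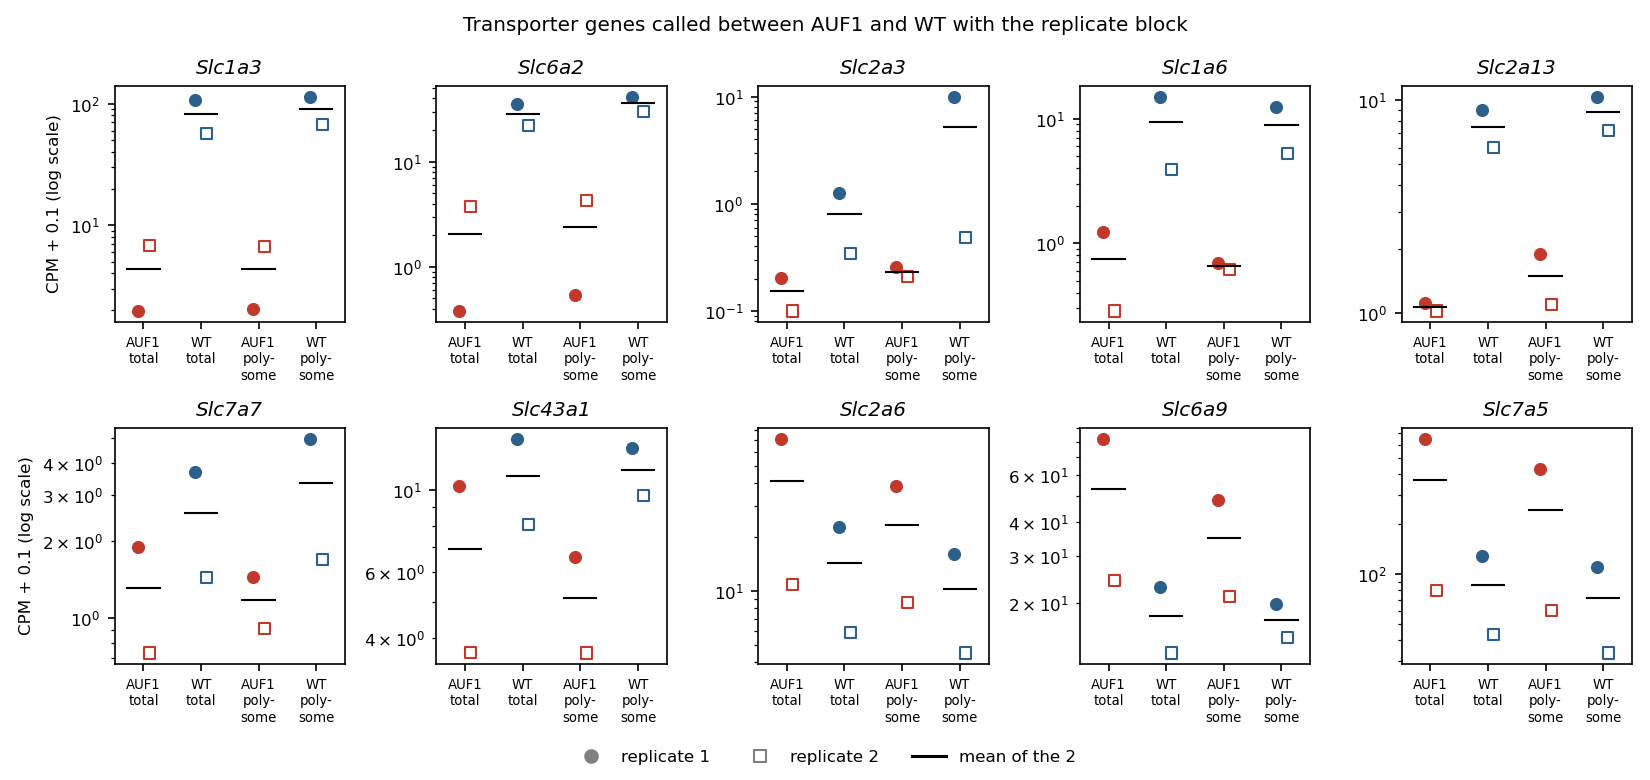
CPM plus 0.1 on a log scale in the 8 libraries for the 10 transporter genes called between AUF1 (red) and WT (blue) with the replicate block in at least 1 fraction; filled circles are replicate 1, open squares replicate 2 and bars the mean of the 2. The genes are ordered from the lowest to the highest blocked fold change in total RNA, and in the last 3 panels replicate 1 lies above replicate 2 in every group.

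Of the monocarboxylate carriers 7 of 14 were tested, and edgeR and DESeq2 called 0 with or without the block. At an unadjusted p under 0.05 in edgeR there were 0 without the block in either fraction. With it there were 0 in total RNA and 2 on polysomes. Of all genes 13.7% and 14.1% reached that p without the block in total and polysome RNA, and 27.6% and 28.1% with it. The lactate exporter Slc16a3 had 137 and 7.59 CPM in AUF1 total RNA and 104 and 14.5 CPM in WT total RNA. The lactate importer Slc16a1 had 71.7 and 15.9 CPM in AUF1 total RNA and 74.6 and 20.8 CPM in WT total RNA. Replicate 1 of Slc16a3 exceeded replicate 2 by more than its genotype difference in either number. Its log2 change was 0.40 within number 1 and -0.92 within number 2 in total RNA, and 0.25 and -1.20 on polysomes. Without WT polysome replicate 1 the block called it lower on polysomes, with an adjusted p of 0.041. For Slc16a1 the blocked log2 fold change was -0.21 (SE 0.29) in both fractions, with adjusted p of 0.688 and 0.711. The aromatic amino acid carrier Slc16a10 of the same family was also not called. The chaperone Bsg was also higher in replicate 1 of both genotypes, with 1422 and 77.4 CPM in AUF1 total RNA and 1114 and 61.2 CPM in WT total RNA. Of 7 lactate shuttle partners, including both lactate dehydrogenases and both mitochondrial pyruvate carriers, 1 was called with the block in total RNA. That was embigin (Emb), a relative of basigin, with a blocked log2 fold change of -1.52 (SE 0.42, adjusted p = 0.044). On polysomes 0 of the 7 were called with the block. Of all genes 13.1% were called with it in total RNA and 13.0% on polysomes.

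In the Slc1 family 4 of 7 genes were tested, and the 2 glutamate carriers among them were called lower. Slc1a3 (GLAST, chr15:8634124-8710764), best known from astrocytes, had 1.86 and 6.70 CPM in AUF1 total RNA and 107 and 57.1 CPM in WT total RNA. On polysomes it had 1.93 and 6.53 CPM in AUF1 cells against 114 and 67.2 CPM in WT cells. Every AUF1 library lay below every WT library of its fraction, and within AUF1 it was replicate 2 that was higher. The log2 fold change in total RNA was -4.26 (SE 0.90, adjusted p = 0.106), and -4.41 (SE 0.73, adjusted p = 0.00471) with the block. The change was -5.80 within number 1 and -3.08 within number 2 in total RNA, and -5.83 and -3.35 on polysomes. With 1 library left out, the blocked value in total RNA ranged from -5.52 to -3.55. On polysomes the blocked value was -4.56 (SE 0.73, adjusted p = 0.00416). DESeq2 called it without the block too, with an adjusted p of 2.74e-05 in total RNA.

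Slc1a6, a glutamate carrier known from Purkinje cells, had 1.12 and 0.185 CPM in AUF1 total RNA and 14.9 and 3.83 CPM in WT total RNA. On polysomes it had 0.590 and 0.516 CPM in AUF1 cells and 12.4 and 5.11 CPM in WT cells. The groups did not overlap in either fraction. The blocked log2 fold change was -3.84 (SE 0.50, adjusted p = 0.00137) in total RNA and -3.88 (SE 0.51, adjusted p = 0.00155) on polysomes. Without the block the adjusted p was 0.172 and 0.17 in edgeR and 0.00138 and 0.00115 in DESeq2. The neutral amino acid exchangers ASCT1 (Slc1a4) and ASCT2 (Slc1a5, a glutamine carrier) were not called by edgeR, with or without the block. DESeq2 with the block called Slc1a4 lower on polysomes (adjusted p = 0.0375). Slc1a4 had 94.2 and 18.4 CPM in AUF1 total RNA and 148 and 37.9 CPM in WT total RNA, lower in both numbers, with a blocked log2 fold change of -0.81 (SE 0.31, adjusted p = 0.119). It was called lower in total RNA without AUF1 total replicate 1 (adjusted p = 0.0168), and on polysomes without either AUF1 total library or WT polysome replicate 1 (adjusted p from 0.00928). Slc1a5 had 31.4 and 5.55 CPM in AUF1 total RNA and 21 and 5.23 CPM in WT total RNA, with a blocked adjusted p of 0.53. The fibroblast marker list was also lower in AUF1 cells, with all 3 of its tested genes called lower with the block in both fractions, and its part in the lower levels of Slc1a3, Slc1a6 and the other carriers called lower was not tested.

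Of the 16 Slc3 and Slc7 genes, 7 were tested, and LAT1 was called higher in both fractions. Slc7a5 had 650 and 79.9 CPM in AUF1 total RNA and 129 and 43.1 CPM in WT total RNA. On polysomes it had 426 and 60.6 CPM in AUF1 cells and 110 and 33.5 CPM in WT cells. AUF1 was higher within each number, yet AUF1 replicate 2 lay below WT replicate 1 in both fractions. The log2 fold change was 2.09 (SE 1.31, adjusted p = 0.575) in total RNA, and 1.62 (SE 0.37, adjusted p = 0.0204) with the block. On polysomes the blocked value was 1.40 (SE 0.37, adjusted p = 0.0349). The call was lost in total RNA without AUF1 total replicate 1 or WT total replicate 1 (adjusted p up to 0.325), and on polysomes without WT total replicate 1, AUF1 polysome replicate 1 or WT polysome replicate 1 (up to 0.233).

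Its heavy chain was not called. Slc3a2 had 356 and 102 CPM in AUF1 total RNA and 187 and 87.4 CPM in WT total RNA, a log2 difference of 0.93 within number 1 and 0.22 within number 2. With the block its log2 fold change was 0.61 (SE 0.26, adjusted p = 0.171) in total RNA and 0.27 (SE 0.26, adjusted p = 0.554) on polysomes. Without AUF1 total replicate 2 the call in total RNA was made, with an adjusted p of 0.0159. The arginine carrier CAT1 (Slc7a1) had 180 and 47.1 CPM in AUF1 total RNA and 61.7 and 38.8 CPM in WT total RNA. It was higher in both numbers in both fractions and had a blocked log2 fold change of 0.98 (SE 0.38, adjusted p = 0.13) in total RNA. It was called higher in total RNA without AUF1 total replicate 2 or either WT polysome library (adjusted p from 0.0103), and on polysomes without WT polysome replicate 2 (adjusted p = 0.038).

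Slc7a7, the light chain y+LAT1 for cationic amino acids, was called lower on polysomes with the block. It had 1.34 and 0.811 CPM in AUF1 polysome RNA and 4.89 and 1.59 CPM in WT polysome RNA, so the groups did not overlap, with a blocked log2 fold change of -1.45 (SE 0.39, adjusted p = 0.0406). In total RNA it had 1.79 and 0.629 CPM in AUF1 cells and 3.60 and 1.33 CPM in WT cells, with a blocked adjusted p of 0.121. Its exons overlap those of Oxa1l on the opposite strand, as those of Slc6a9 overlap Ccdc24 and B4galt2. How strand was treated in counting is not known from the labels, and reads of such pairs may not be separable. The polysome call of Slc7a7 was lost without any 1 of the WT total, AUF1 polysome and WT polysome libraries, with adjusted p of 0.0656 to 0.391.

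The cystine importer xCT (Slc7a11) had 2.05 and 1.51 CPM in AUF1 polysome RNA and 0.369 and 0.793 CPM in WT polysome RNA. In total RNA it had 0.841 and 1.48 CPM in AUF1 cells and 0.405 and 0.808 CPM in WT cells, so AUF1 lay above WT in both fractions. With the block its log2 fold change was 0.93 (SE 0.53, adjusted p = 0.286) in total RNA and 1.73 (SE 0.51, adjusted p = 0.0545) on polysomes. DESeq2 with the block called it on polysomes, with an adjusted p of 0.043. The edgeR block called it there without either AUF1 total library or AUF1 polysome replicate 2 (adjusted p from 0.0397).

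Slc7a11 lay higher and Slc7a7 lower in AUF1 cells, and both hold the amino acid response motif TGATGNAA near their starts, which is why these windows are shown. Each runs from 250 bases before to 50 bases after a RefSeq start (GRCm38.p6), is written 5′ to 3′ on the minus strand of its gene, and has matches on either strand in capitals.
Slc7a11, chr3:50443564-50443863: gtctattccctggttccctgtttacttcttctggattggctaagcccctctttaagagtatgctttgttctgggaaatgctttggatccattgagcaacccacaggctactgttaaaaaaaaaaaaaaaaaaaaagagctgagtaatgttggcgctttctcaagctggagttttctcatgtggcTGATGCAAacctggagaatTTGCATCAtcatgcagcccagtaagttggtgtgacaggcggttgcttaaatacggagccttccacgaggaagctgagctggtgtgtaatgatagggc
Slc7a7, chr14:54417895-54418194: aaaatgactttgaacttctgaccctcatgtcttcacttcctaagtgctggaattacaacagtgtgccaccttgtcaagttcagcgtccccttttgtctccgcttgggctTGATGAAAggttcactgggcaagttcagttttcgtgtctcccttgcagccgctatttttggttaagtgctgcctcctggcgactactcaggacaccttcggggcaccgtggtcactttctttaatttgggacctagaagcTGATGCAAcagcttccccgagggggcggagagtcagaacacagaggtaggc
The motif, searched on both strands, was in 4 of 44 windows of the 32 tested transporters that matched the table (9.09%) and in 3.97% of all 32851 windows. These 4 windows belong to 3 genes, since 2 of the 5 Slc7a7 windows hold it and these overlap. The third carrier with it was Slc1a4, which was lower in AUF1 cells in both numbers. The E-box letters CANNTG, the core bound by myogenic factors, were in 28 of the 44 windows (63.6%) and in 72.3% of all windows. Atf4, whose protein binds the amino acid response motif, had 1645 and 1417 CPM in AUF1 total RNA and 1125 and 1090 CPM in WT total RNA, with a blocked adjusted p of 0.223.

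In the Slc6 family 7 of 17 genes were tested. The noradrenaline carrier Slc6a2 had 0.280 and 3.63 CPM in AUF1 total RNA and 35.0 and 22.1 CPM in WT total RNA. On polysomes it had 0.435 and 4.13 CPM in AUF1 cells and 41.4 and 30.0 CPM in WT cells. The groups did not overlap, and as for Slc1a3 replicate 2 was the higher one in AUF1 cells and replicate 1 in WT cells. The change within number 1 was therefore the larger, at -6.65 against -2.58 in total RNA. Without the block the adjusted p was 0.28 and 0.267 in edgeR and 0.0247 and 0.0199 in DESeq2. With the edgeR block the log2 fold change was -4.32 (SE 1.00, adjusted p = 0.0219) in total RNA and -4.40 (SE 0.99, adjusted p = 0.0191) on polysomes. The call was lost without WT total replicate 1 in total RNA (adjusted p = 0.15) and without AUF1 polysome replicate 1 on polysomes (adjusted p = 0.0848).

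The glycine carrier GlyT1 (Slc6a9) had 82.1 and 24.2 CPM in AUF1 total RNA and 22.8 and 12.9 CPM in WT total RNA. Both AUF1 libraries lay above both WT libraries, here and on polysomes, where it had 48.5 and 21.1 CPM in AUF1 cells and 19.7 and 14.7 CPM in WT cells. With the block the log2 fold change was 1.42 (SE 0.33, adjusted p = 0.0211) in total RNA and 0.88 (SE 0.32, adjusted p = 0.107) on polysomes. The call in total RNA was lost without AUF1 total replicate 1 or either WT total library, with adjusted p up to 0.298, and on polysomes a call was made without either AUF1 total library or WT polysome replicate 2 (adjusted p from 0.0231).

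The 2 most abundant carriers of the family, which supply muscle with taurine and creatine, were not called. Slc6a6 had 1536 and 218 CPM in AUF1 total RNA and 699 and 211 CPM in WT total RNA. Its log2 change was 1.14 within number 1 and 0.05 within number 2, and the blocked value was 0.65 (SE 0.34, adjusted p = 0.243). Without AUF1 total replicate 2 it was called in total RNA, with an adjusted p of 0.0168. Slc6a6 alone made up 30.8% and 18% of the summed transporter CPM in AUF1 total RNA and 20.3% and 15.4% in WT total RNA. Slc6a8 was even between replicates by comparison, with 279 and 184 CPM in AUF1 total RNA and 295 and 239 CPM in WT total RNA, and a blocked adjusted p of 0.574. On polysomes it had 240 and 250 CPM in AUF1 cells against 372 and 337 CPM in WT cells. There the AUF1 libraries lay below the WT libraries, with a blocked log2 fold change of -0.52 (SE 0.23, adjusted p = 0.17) and a call without AUF1 total replicate 1 (adjusted p = 0.0491).

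The sodium-coupled Slc38 carriers, 7 of 11 tested, had 0 calls with or without the block in edgeR and in DESeq2. At an unadjusted p under 0.05 there was 1 in edgeR, on polysomes with the block, where 28.1% of all genes reached it. The amino acid-regulated glutamine carrier SNAT2 (Slc38a2) had 320 and 253 CPM in AUF1 total RNA and 403 and 265 CPM in WT total RNA. It had 588 and 323 CPM in AUF1 polysome RNA and 502 and 366 CPM in WT polysome RNA, and the AUF1 and WT values overlapped in both fractions. SNAT1 (Slc38a1) had 106 and 28.9 CPM in AUF1 total RNA and 63.7 and 25.4 CPM in WT total RNA, higher in both numbers, with a blocked log2 fold change of 0.47 (SE 0.27, adjusted p = 0.291). The lysosomal arginine sensor Slc38a9, which signals to mTORC1, had a blocked log2 fold change of -0.19 (SE 0.26, adjusted p = 0.677). Of the 2 tested proton-coupled Slc36 carriers, 0 were called by edgeR or DESeq2. At an unadjusted p under 0.05 in edgeR there was 1, on polysomes with the block, against 28.1% of all genes. Both Slc36 carriers were lower within both numbers in both fractions. In the Slc43 family all 3 genes were tested, and LAT3 (Slc43a1), a leucine carrier without sodium, was called lower on polysomes with the block. It had 6.50 and 3.54 CPM in AUF1 polysome RNA and 12.8 and 9.52 CPM in WT polysome RNA, which did not overlap, with a blocked log2 fold change of -1.22 (SE 0.32, adjusted p = 0.0352). In total RNA it had 10.1 and 3.55 CPM in AUF1 cells and 13.6 and 7.94 CPM in WT cells, and its blocked adjusted p was 0.156. The polysome call was lost without either WT total library, either AUF1 polysome library or WT polysome replicate 2, with adjusted p up to 0.253.

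Polysome against total RNA asks whether a transporter mRNA is over- or under-represented on heavy polysomes. In AUF1 cells 0 of the 45 were called without the block (0.0% of all genes) and 0 with it (0.0152% of all genes), and in WT cells the counts and shares were the same. An unadjusted p under 0.05 without the block was reached by 0 transporters in either genotype. Of all genes 3.33% reached it in AUF1 cells and 2.76% in WT cells. With the block 4 and 2 transporters reached it, against 12.2% and 8.02% of all genes. DESeq2 called 0 in both genotypes (0.197% of all genes in AUF1 cells and 0.22% in WT cells). It gave no adjusted p for many transporters here, among them Slc1a6, Slc2a3 and Slc2a13 in both genotypes, so those could not be called. The median log2 fold change of the transporters was -0.34 in AUF1 cells and -0.02 in WT cells, against -0.02 and 0.02 for all genes. The interaction, which asks whether the genotype change on polysomes differed from that in total RNA, called 0 of 45 in edgeR with and without the block and 0 in DESeq2. At an unadjusted p under 0.05 there were 0 in each, against 0.372% of all genes with the block and 0.122% without it and in DESeq2. The interaction called 0.0% of all genes after adjustment. Its median was -0.25 for the transporters and -0.02 for all genes. The 5 carriers called lower in total RNA were called lower on polysomes too, among them Slc2a3, which passed the filter through WT libraries alone. The same overlap over all genes is not given here. The comparisons in total and polysome RNA use different libraries of the same lines but came from a single fit with a shared spread. They are therefore not independent of each other. Slc38a2 lay higher on polysomes than in total RNA within both numbers in both genotypes, by 0.88 and 0.35 in AUF1 cells and 0.32 and 0.47 in WT cells on the log2 scale. Its relative Slc38a10 lay lower in both, by -0.74 and -0.69 in AUF1 cells and -0.51 and -0.46 in WT cells. Neither was called (adjusted p of 1.0 without the block).

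In total RNA the fit without the block called 1.02% of all genes. Of the genes on 5 lists around these transporters it called 1, the muscle creatine kinase Ckm. It had 1741 and 1537 CPM in AUF1 total RNA and 55.1 and 94.2 CPM in WT total RNA, with a log2 fold change of 4.46 (SE 0.59, adjusted p = 0.041). Among 20 enzymes that use the cargo, the block called 5 higher in total RNA (Ckm, Ckmt2, Cth, Hk2 and Got1) and 2 lower (Glul and Csad, which make glutamine and taurine). On polysomes it called 5 higher and 1 lower. Among 21 genes of GLUT4 storage and insulin signalling, it called Sort1, Tbc1d1 and Akt2 higher and Irs1 lower in total RNA, and on polysomes Sort1 and Tbc1d1 higher and Tbc1d4 lower. Sort1, the sortilin that builds GLUT4 storage vesicles, had a blocked log2 fold change of 2.12 (SE 0.31, adjusted p = 0.00258) in total RNA. Of 25 genes of amino acid sensing by mTORC1, Rptor and Sesn2 were called higher and Sesn1 lower in total RNA, and Rptor and Rragd higher on polysomes. Rptor, the scaffold of mTORC1, had a blocked log2 fold change of 1.41 (SE 0.22, adjusted p = 0.00319). Of 13 regulators of transporters, Arrdc4, which lowers glucose uptake, and Mef2d were called higher and Klf15 lower in total RNA, and Arrdc4 higher and Klf15 lower on polysomes. In total RNA the block thus called 7 of the 20 enzymes, 4 of the 21 GLUT4 and insulin genes, 3 of the 25 mTORC1 genes and 3 of the 13 regulators, against 13.1% of all genes. On polysomes it called 6, 3, 2 and 2 of them, in the same order, against 13.0%. The mTORC1 share was at or below that of all genes in both fractions. Ckmt2, at 0 CPM in both WT total libraries, passed the filter through AUF1 libraries alone and Klf15 through WT libraries alone, so their directions follow in part from the filter. The lists had block medians between -0.05 and 0.55 in total RNA, against -0.21 for the transporters.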

How the data were processed

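RNA of 8 C2C12 libraries was analysed from raw counts per gene symbol, which the authors deposited as 1 column per library. Per the submitters' processing notes, STAR, Bowtie, cutadapt, Trimmomatic and SAMtools were used with build mm10. For the counter, the annotation and the strand option, the sources used here give no name. Summary lines for reads outside genes (6.04% to 7.23% of counts) or in more than 1 gene (0.254% to 0.389%) were left out. Libraries titled High were read as the heavy polysome fraction, which the submitters' design text names. Titles number the replicates 1 and 2, and the descriptions call the second Rep3.

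The filter filterByExpr of edgeR 4.0.16 (R 4.3.3) kept 13167 genes, and libraries were scaled by the trimmed mean of M-values. All libraries entered a single quasi-likelihood fit with a coefficient for each group. It gave AUF1 against WT in total and polysome RNA, polysome against total RNA in each genotype, and their interaction. Tests were two-sided, with Benjamini-Hochberg adjustment over all genes of a comparison and calls at an adjusted p under 0.05. The SE was taken as log2 fold change divided by sqrt(F). Changes within a number are differences of log2 CPM with a prior count of 2. DESeq2 1.42.0 was the other tool.

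Deviations of replicates from their group means correlated between groups (r of 0.62 to 0.81 across 13167 genes, which are not independent). With only 2 numbers and no label on what they share, the number was not treated as pairing samples, and the fit with it as an additive block is given beside the planned one. The edgeR fits of AUF1 against WT, with and without the block, were tested on simulated counts, where the fit without the block was the less sensitive. These counts were drawn from a fit with the block, so they held an additive replicate effect by design. The simulation therefore cannot say which fit suits the data better. The median SE of a transporter's log2 fold change in total RNA was 0.976 without the block and 0.341 with it.

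Transporters and lists were chosen with earlier results of these data known. Named with full values were transporters called with or without the block, and 16 fixed by name. Positions and exon lengths came from GENCODE M21, which held all 84 genes, and promoter windows from RefSeq GRCm38.p6. A 3′ untranslated region was that of 1 transcript per gene. Values of some single genes are not reported here, though counts and medians over the transporters include them.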

Additional observations from a re-analysis of the deposited data

Results flagged for a closer look

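For Slc6a7 and Slc7a11 the 2 replicates of AUF1 cells moved one way between total RNA and polysomes and those of WT cells the other way. Slc6a7, a proline carrier, differed on the log2 scale, polysome minus total, by -0.85 and -0.14 in AUF1 cells and by 0.04 and 0.16 in WT cells, with an interaction of -0.59. Slc7a11 differed by 1.22 and 0.03 in AUF1 cells and by -0.11 and -0.02 in WT cells, with an interaction of 0.69. The test of this difference passed the threshold for neither gene (interaction adjusted p of 1.0 in edgeR's quasi-likelihood test, with and without the replicate block).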

How the results depend on the processing

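Without the replicate block, 0 transporters were called between AUF1 and WT in either fraction under DESeq2 size factors, library totals alone, only the 4 libraries of a comparison, or any 1 library left out. Without a filter on low counts 1 was called in total RNA, Slc2a13 (log2 -2.93, adjusted p = 0.0418), and 0 on polysomes. With the replicate block the counts were 8 in total RNA and 9 on polysomes. DESeq2 called 4 and 5 without the block and 8 and 12 with it. All 8 in total RNA were those of edgeR, while on polysomes 9 were shared and Slc1a4, Slc6a7 and Slc7a11 were added. With 1 library left out, only fits without the block gave a count of 0 between AUF1 and WT. Over fits with and without the block, the counts ranged from 0 to 13 in total RNA and from 0 to 18 on polysomes. Between polysome and total RNA they ranged from 0 to 1 in each genotype: the block gave Slc2a6 in AUF1 cells without AUF1 total replicate 2 (adjusted p = 0.0486) and Slc2a3 in WT cells without WT polysome replicate 2 (adjusted p = 0.00459). The interaction gave 0 throughout.

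Over fits with and without the block, the median log2 fold change of the transporters had no stable sign when 1 library was left out. It ranged from -1.46 to 0.83 in total RNA, from -1.42 to 0.60 on polysomes, from -1.29 to 1.08 between polysome and total RNA in AUF1 cells, from -0.85 to 1.00 in WT cells, and from -1.21 to 1.09 for the interaction. With library totals alone it was -0.39 in total RNA and -0.16 for the interaction, and with DESeq2 size factors the interaction median was -0.15. Of 46 named values, 25 changed sign under at least 1 alternative without a call in either setting. The polysome change of Slc16a3 reversed, from 0.05 in the planned fit to -1.23 with the block and without WT polysome replicate 1. Its range with 1 library left out was -2.51 to 1.35 over fits with and without the block, and -1.23 to 0.27 over those with it. Without the block, leaving out 1 library sets 1 replicate number against both. The causes of these shifts were not tested. On polysomes the median SE was 0.979 without the block and 0.335 with it, and the part of depth was not tested. At such an error, a count of 0 without the block does not show that AUF1 and WT cells had like levels.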

Other observations

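The excess in replicate 1 was also seen in other solute carriers. Of 130 tested Slc genes outside the transporter families above and outside the mitochondrial Slc25 family, 102 were higher in replicate 1 and 1 in replicate 2 at an adjusted p under 0.05 (edgeR's quasi-likelihood test with the block), with a median log2 difference of 1.56. Of 39 tested Slc25 carriers, most of which sit in the inner mitochondrial membrane, 7 were higher in replicate 1 and 1 in replicate 2. Their median log2 difference was -0.04. Over all genes tested, 20.8% were higher in replicate 1 and 8.98% in replicate 2. The transporters described above had a median of 1.59. These are counts over genes of the same libraries, and no test of the difference between the sets was made.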
